A study of Mus musculus with 12 samples.

Results

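The aryl hydrocarbon receptor pathway was described here through 5 genes chosen by name, namely Ahr, Arnt, Ahrr, Cyp1a1 and Cyp1b1, out of 5545 genes analysed. The 12 libraries came from 6 mice, with NK cells and ILC1 sorted from the liver of each animal. The mice were female C57BL/6J animals (C57BL/6 in the labels), put at weaning on 1 of 2 diets for 12 weeks. The 3 lean mice ate standard RM1 chow, and the 3 obese mice ate a highly palatable obesogenic diet ("45% AFE fat") together with condensed milk. Both populations were lineage-negative and NK1.1+, with CD49a- CD49b+ cells taken as NK cells, the circulating cytotoxic lymphocytes, and CD49a+ CD49b- cells taken as ILC1, their less cytotoxic tissue-resident relatives. The 4 groups of diet and population had 3 libraries each, and replicates 25, 26 and 27 named the animal within a diet, so that lean mouse 25 and obese mouse 25 were different mice.

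AHR is a transcription factor of the basic helix-loop-helix PAS family that is switched on by small molecules such as dioxins, plant indoles and products of tryptophan breakdown. Without a ligand it is held in the cytoplasm by chaperones. With a ligand it enters the nucleus, pairs with ARNT and binds DNA elements with the core GCGTG, and among its best known targets are the cytochrome P450 genes Cyp1a1 and Cyp1b1 and the gene of its own repressor, Ahrr. In the liver the pathway is known for the clearance of foreign chemicals, and in innate lymphocytes AHR is known as a factor that tissue-resident populations, liver ILC1 among them, depend on. The comparisons asked whether these genes differed between NK cells and ILC1, and whether either population differed between lean and obese mice.

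Libraries held 1666637 to 2826766 counts over the genes analysed, and 1948 to 3292 of these genes had a count. Lean NK 27 and obese ILC1 25 had gaps, with 9.63% and 14.1% of the genes that reached 100 normalized counts in both other libraries of their group at or under 3 counts, against at most 0.485% in the other 10 libraries. Obese ILC1 26 held far more liver-cell transcript than any other library, with 302248 normalized counts summed over 9 hepatocyte genes. Cxcr6, a chemokine receptor that marks liver ILC1, lay between 6272 and 23848 normalized counts in the ILC1 libraries and between 58 and 564 in the NK libraries. The test of Ahr in ILC1 against NK cells is given below with and without these 3 libraries. Levels, shares, correlations, marker calls and the main tests of Arnt are given with all 12 libraries.

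Ahr, the gene of the receptor itself, lies at chr12:35497974-35535038 on the minus strand (GRCm38) and has 6163 exon bases, and a noncoding gene on the plus strand, Gm48236, overlaps it. Levels are given first as normalized counts, the reads of a gene in a library after division by the authors' scaling factor. In lean NK cells Ahr had 26, 9 and 3 normalized counts in replicates 25, 26 and 27, a mean of 12.7 ± 11.9 (SD, n = 3). In obese NK cells it had 11, 29 and 39 (26.3 ± 14.2, n = 3). In lean ILC1 the values were 158, 83 and 139 (127 ± 39.0, n = 3), and in obese ILC1 they were 158, 132 and 226 (172 ± 48.5, n = 3). Every ILC1 library was therefore above every NK library, with a gap from 39 to 83 normalized counts, whereas lean and obese libraries of the same population overlapped. The NK values rest on few reads, 3 to 52 raw counts per library, against 75 to 319 in ILC1.

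**Figure D1:**
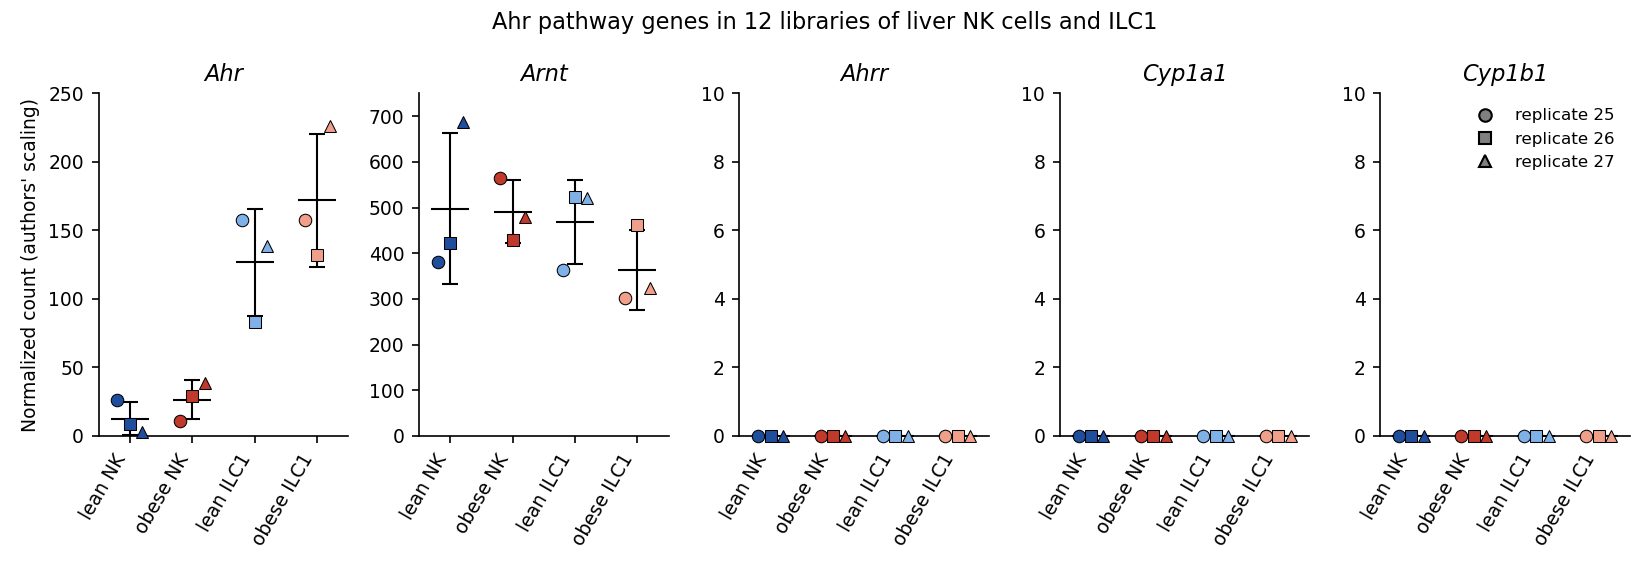
Normalized counts (authors' scaling) of the 5 genes in each of the 12 libraries, with points for libraries, symbols for replicates, a horizontal line for the group mean and error bars for the SD (n = 3). Ahr separates ILC1 (83 to 226) from NK cells (3 to 39), Arnt overlaps across the 4 groups, and Ahrr, Cyp1a1 and Cyp1b1 are at 0 in every library.

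Ahr rose in ILC1 relative to NK cells by a log2 fold change of 2.98 (SE 0.653, 95% interval 1.54 to 4.42), a fold of 7.89, with an adjusted p of 0.02293 in edgeR's quasi-likelihood test. Here a gene was called when its Benjamini-Hochberg adjusted p was under 0.05 and its fold change over 2, and 3.15% of the 2606 genes tested were called higher in ILC1. Ahr ranked 175 of 2606 by log2 fold change and 94 by p. All ILC1 libraries were above all NK libraries for 3.03% of the genes tested. Within the animal, ILC1 had more Ahr than NK cells in 6 of 6 mice, which gives an exact two-sided sign-flip permutation p of 0.03125, the smallest that 6 mice can give. The ILC1-to-NK ratio of normalized counts was 6.08 in lean mouse 25, 9.22 in lean mouse 26, 14.4 in obese mouse 25, 4.55 in obese mouse 26 and 5.79 in obese mouse 27. In lean mouse 27, whose NK library had 3 raw counts and the gaps named above, the ratio of scaled raw counts was 48.4, with an exact 95% counting interval of 16.2 to 238. The direction was thus shared by all 6 mice while the size of the ratio varied most with the small NK value. In bulk RNA, fewer cells of a type and less RNA per cell cannot be told apart.

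**Figure D2:**
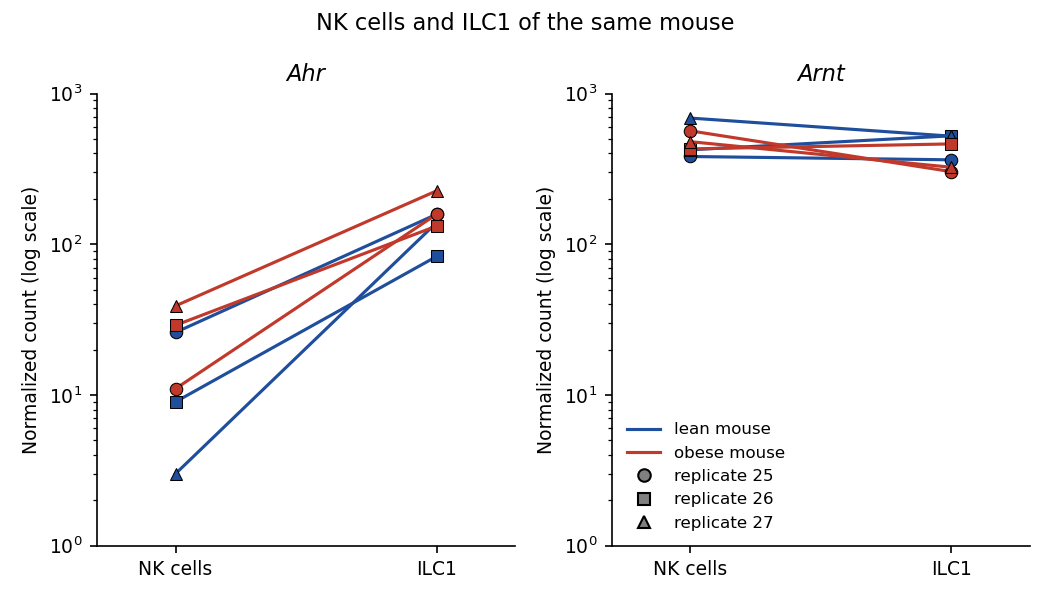
Normalized counts on a log axis of Ahr and Arnt in NK cells and ILC1 of the same mouse, with a line for each of the 6 mice (blue for lean, red for obese) and symbols for replicates. All 6 Ahr lines go up from NK cells to ILC1, while 2 Arnt lines go up and 4 go down.

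The Ahr difference kept its direction in every alternative run, but not its call. In lean mice alone the log2 fold change was 3.30 (adjusted p = 0.1197, edgeR) and in obese mice alone 2.66 (adjusted p = 0.2033, edgeR), and neither was called, beside 1.5% and 0.537% of genes called higher in these fits. With the mouse as a block it was 3.23 with an adjusted p of 0.1249 (edgeR), and in that fit 46 genes in all were called in place of 113. Leaving out 1 library at a time gave 2.74 to 3.52, and the call was lost without lean NK 26 (2.88, adjusted p = 0.08004), obese NK 25 (2.80, 0.08747), obese NK 26 (3.01, 0.08741), obese NK 27 (3.17, 0.07173), lean ILC1 25 (2.88, 0.0669), lean ILC1 27 (2.95, 0.05744) or obese ILC1 27 (2.84, 0.05087). It held without lean NK 27 (2.74, adjusted p = 0.01978), obese ILC1 25 (3.00, 0.01984) or obese ILC1 26 (3.06, 0.02614), and without all 3 of these libraries (2.95, 0.00271), where obese ILC1 is left with a lone library that is assumed to vary like the other groups.

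Markers of other cell types also differed between the sorted populations. T cell genes summed to 254 to 438 normalized counts in lean NK, 432 to 884 in obese NK, 13834 to 16371 in lean ILC1 and 2879 to 13416 in obese ILC1, and 3 of the 5 tested (7 listed), Cd3d, Cd3e and Cd3g, were called higher in ILC1, beside 3.15% of all genes. In lean ILC1 most of that sum was Cd3g, at 12468 to 13673, with Cd3d at 721 to 2012 and Cd3e at 271 to 1013. Cd5 was there at 41 to 176 and Cd4 at 0 to 187. Cd8a and Cd8b1 were at 0 in every lean ILC1 library. In obese ILC1 25, 26 and 27, Cd8a was at 0, 353 and 0 and Cd8b1 at 0, 786 and 16. In the same libraries Cd4 was at 0, 586 and 5 and Cd5 at 0, 444 and 72. Cd3g was there at 12599, 3493 and 2037, Cd3d at 448, 1546 and 550 and Cd3e at 369, 1475 and 199. The lineage markers used to remove cells in the sort included CD3 and CD8α. Kupffer cell genes summed to 91 to 406 in lean NK, 151 to 226 in obese NK, 178 to 447 in lean ILC1 and 1950 to 46738 in obese ILC1, with 3 of 8 tested, Adgre1, C1qa and C1qc, called higher in ILC1. Adgre1, which encodes the macrophage marker F4/80, was at 0 in lean NK and in lean ILC1 25, where C1qb was at 185, Csf1r at 63 and Cd5l at 49. Of the hepatocyte genes, summing to 38 to 221, 189 to 791, 165 to 248 and 316 to 302248 in the same order of groups, Apoc3 was called higher, 1 of 7 tested (9 listed), and of the B cell genes Cd79b, 1 of 3 tested (4 listed). Their part in the Ahr difference was not tested beyond the fits without single libraries.

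Diet left Ahr without a called difference in either population. In NK cells the obese-to-lean log2 fold change was 1.06 (SE 0.875, 95% interval -0.86 to 2.99, adjusted p = 1 in edgeR), and the exact two-sided permutation test of the normalized counts gave p = 0.2 (n = 3 against 3, smallest possible p 0.1). Leaving out 1 library at a time moved the NK value from 0.59 (without lean NK 27, the library with 3 Ahr counts) to 2.13 (without lean NK 25), with 0.65 without obese NK 27, and none of these was called. In ILC1 it was 0.42 (SE 0.856, 95% interval -1.47 to 2.30, adjusted p = 0.929 in edgeR), with an exact permutation p of 0.5, and it ran from 0.14 (without obese ILC1 27) to 0.61 (without obese ILC1 26) when 1 library was left out. These intervals are wide and include both no difference and a 4-fold rise. The obesity effect in ILC1 minus that in NK cells was -0.65 (SE 1.21, 95% interval -3.31 to 2.02, adjusted p = 0.9956 in edgeR), so the effect was not shown to differ between the populations. For this difference 0 genes (0%) were called by edgeR's quasi-likelihood test and 155 had an unadjusted p under 0.05, with 21 called by DESeq2 and 9 by the likelihood-ratio test. For Ahr it ran from -1.72 (without lean NK 25) to -0.18 (without lean NK 27) when 1 library was left out, with -1.005 without obese NK 25 and -0.24 without obese NK 27, and it turned to 0.24 without the 3 libraries that stand apart. Of the 2606 genes, 0 (0%) were called in obese against lean NK cells and 0 (0%) in obese against lean ILC1 by edgeR's quasi-likelihood test. There were 31 and 277 genes at an unadjusted p under 0.05, and DESeq2 called 8 and 77 while edgeR's likelihood-ratio test called 2 and 57, with neither Ahr nor Arnt among them.

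In order of mean level, Ahr was lowest in lean NK, followed by obese NK, then lean ILC1 and finally obese ILC1, at 2.06, 4.27, 20.6 and 27.9 normalized counts per kb of exon. The neighbours lean NK and obese NK did not differ beyond their spread, and neither did lean ILC1 and obese ILC1. Obese NK and lean ILC1 were the neighbours whose libraries did not overlap.

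Arnt, which encodes the partner that AHR needs to bind DNA, lies at chr3:95434388-95497240 on the plus strand (GRCm38) with 8007 exon bases, and a processed pseudogene on the same strand, Gm42672, overlaps it. Arnt had 382, 423 and 687 normalized counts in lean NK replicates 25, 26 and 27 (497 ± 166, SD, n = 3). Obese NK libraries had 565, 429 and 479 (491 ± 68.8, n = 3). Lean ILC1 libraries had 363, 524 and 521 (469 ± 92.1, n = 3), and obese ILC1 libraries had 303, 463 and 324 (363 ± 87.0, n = 3). All 4 groups overlapped, with the highest value in lean NK 27 and the lowest in obese ILC1 25, the 2 libraries with gaps.

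No comparison of Arnt passed the threshold. ILC1 against NK cells gave a log2 fold change of -0.28 (SE 0.227, 95% interval -0.78 to 0.22, adjusted p = 0.6278 in edgeR), with ILC1 lower in 4 of 6 mice and an exact sign-flip permutation p of 0.21875. Within the mouse, the ILC1-to-NK ratio of Arnt ran from 0.536 in obese mouse 25 to 1.24 in lean mouse 26. Its upper end, 0.22, lay below 1.54, the lower end of the interval for Ahr. Obese against lean NK cells gave 0.02 (SE 0.320, 95% interval -0.68 to 0.73, adjusted p = 1 in edgeR, exact permutation p = 1). Obese against lean ILC1 gave -0.41 (SE 0.321, 95% interval -1.12 to 0.30, adjusted p = 0.7378 in edgeR, exact permutation p = 0.2). The obesity effect in ILC1 minus that in NK cells was -0.43 (adjusted p = 0.9956, edgeR).

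Set against its partner per kb of exon, the receptor transcript was the scarcer of the pair in every library. Per kb, Arnt was at 62.1 in lean NK, 61.3 in obese NK, 58.6 in lean ILC1 and 45.4 in obese ILC1. Ahr made up 3.79% ± 3.90 of the sum of Ahr and Arnt in lean NK (SD, n = 3, range 0.564% to 8.12%). In obese NK it made up 6.70% ± 3.74 (2.47% to 9.57%). The share was 26.3% ± 9.54 in lean ILC1 (17.1% to 36.1%) and 38.3% ± 10.4 in obese ILC1 (27.0% to 47.5%). The highest NK share, 9.57%, was below the lowest ILC1 share, 17.1%, and within each population the lean and obese shares overlapped. This share takes up the same Ahr counts as the test above and is given as a description.

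**Figure D3:**
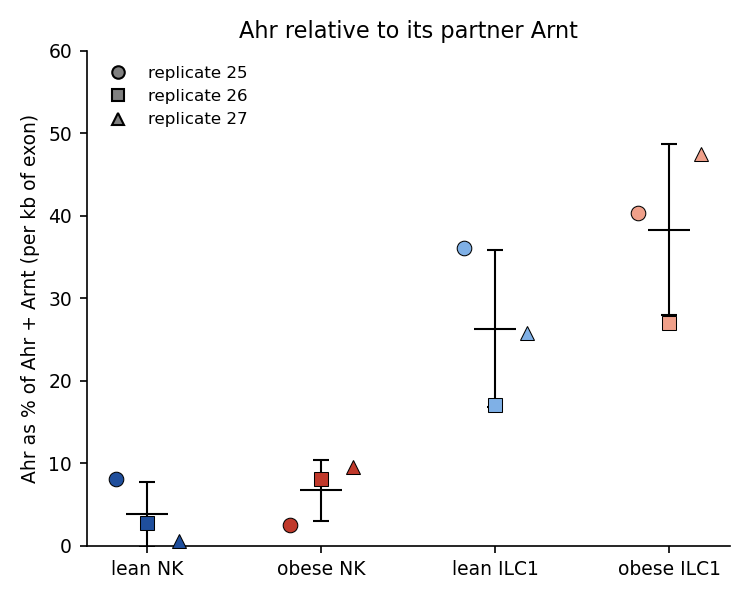
Ahr as a percentage of Ahr plus Arnt, both per kb of exon, in each library, with points for libraries, symbols for replicates, lines for group means and error bars for the SD (n = 3). NK libraries lie between 0.564% and 9.57% and ILC1 libraries between 17.1% and 47.5%.

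Ahrr, Cyp1a1 and Cyp1b1 had no count in any of the 12 libraries. Ahrr, at chr13:74211118-74292331 on the minus strand, encodes a repressor that competes with AHR for ARNT. Cyp1a1, at chr9:57687928-57703824 on the plus strand, and Cyp1b1, at chr17:79701537-79715061 on the minus strand, encode enzymes that oxidise many AHR ligands and other aromatic compounds. With 25241868 counts summed over all libraries and genes analysed, a count of 0 allows up to 3 counts, or 0.119 CPM, the count scaled to a common library total. In a single library the same 3 counts correspond to 1.98 to 5.26 normalized counts, which is below the Ahr level of every library but lean NK 27, at 3 raw counts. These limits cover counting error only. A gene without a count was common in the table, at 1656 of 5545 genes (29.9%). The 3 genes were not detected, so they could not be compared between groups. Whether depth or absence of transcript lay behind this was not tested.

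The 250 bases before the start of each of these 3 genes (RefSeq, GRCm38.p6) are shown because they hold the core of the AHR response element, in a setting where the receptor gene was expressed and the target was not detected. Capitals mark the core GCGTG, or CACGC where it lies on the other strand, and each sequence runs toward the start site. Ahrr is chr13:74292332-74292581 on the minus strand, Cyp1a1 is chr9:57697363-57697612 on the plus strand and Cyp1b1 is chr17:79715062-79715311 on the minus strand. The RefSeq start of Cyp1a1 lies inside the GENCODE gene interval given above, whose annotated start is further upstream.
Ahrr: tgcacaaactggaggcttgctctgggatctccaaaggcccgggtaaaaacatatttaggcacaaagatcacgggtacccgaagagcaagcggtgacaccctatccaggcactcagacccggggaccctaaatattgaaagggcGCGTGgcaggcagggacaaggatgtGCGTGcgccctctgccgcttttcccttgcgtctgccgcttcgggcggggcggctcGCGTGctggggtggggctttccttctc
Cyp1a1: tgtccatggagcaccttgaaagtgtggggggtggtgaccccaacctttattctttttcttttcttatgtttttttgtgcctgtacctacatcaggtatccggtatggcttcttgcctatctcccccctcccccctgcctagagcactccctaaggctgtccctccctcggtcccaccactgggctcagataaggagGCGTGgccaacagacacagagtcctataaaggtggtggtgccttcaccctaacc
Cyp1b1: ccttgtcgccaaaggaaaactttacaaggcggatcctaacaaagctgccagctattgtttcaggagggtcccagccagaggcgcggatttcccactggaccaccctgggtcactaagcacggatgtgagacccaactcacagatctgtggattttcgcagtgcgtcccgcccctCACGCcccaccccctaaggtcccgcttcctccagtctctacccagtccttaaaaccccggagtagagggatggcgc
Ahrr had 3 cores, 107, 82 and 27 bases before the start, and 1 of them was part of the longer form TNGCGTG. Cyp1a1 had 1 core, 54 bases before the start, and Cyp1b1 had 1 core on the other strand, 76 bases before the start. The window of Arnt also had 1 core, 29 bases before its start, so that its presence did not separate detected from undetected genes. Of 32851 windows of this length, searched on both strands, 28.2% had at least 1 core, 2.8% had at least 3, and 4.1% had TNGCGTG. A core in 1 window is therefore frequent, while the 3 cores of Ahrr are not, and a match of letters is a description and not a binding site. Ahr was named without a window.

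Other genes of the pathway were taken from 4 lists (the PAS family, the receptor complex and its coregulators, reported target genes, and tryptophan metabolism) with 30 symbols, the 5 genes above included. Of these, 28 were in the table, 9 had no count in any library and 18 were tested. The genes analysed ran alphabetically only up to Cyp26b1, so pathway members with later symbols were not covered. The counts and medians below therefore describe only this part of the pathway. In ILC1 against NK cells Ahr and Arnt2 were called higher and 0 lower, 2 of 18, beside 4.34% of all genes called in either direction. Arnt2 had at most 1 raw count in any NK library and passed the filter on low counts only through ILC1 libraries. It could therefore be called only as higher in ILC1, and the 2 of 18 is given as a description. The median log2 fold change of the 18 was -0.05, against 0.04 for all genes tested. In obese against lean NK cells and in obese against lean ILC1, 0 of 18 were called by edgeR's quasi-likelihood test, by its likelihood-ratio test or by DESeq2, with medians of 0.06 and 0.08.

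Arnt2, a relative of Arnt that is best known from the nervous system, had 0 normalized counts in every NK library but obese NK 25, which had 1. It had 25, 40 and 0 normalized counts in lean ILC1 25, 26 and 27, and 598, 16 and 29 in obese ILC1 25, 26 and 27. The sum of 602 raw counts in ILC1 came mostly from obese ILC1 25, and lean ILC1 27 was no higher than the NK libraries. The ratio of scaled counts was 756 with all libraries (exact 95% counting interval 135 to 29910) and 168 without obese ILC1 25 (29.6 to 6703), and these intervals cover counting error only. Its adjusted p was 0.03117 (edgeR), and the call was lost in 8 of 12 fits that left out 1 library (adjusted p 0.01845 to 0.125 over the 12), with the mouse as a block (0.0792), in lean mice alone (0.2363) and in obese mice alone (0.145).

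The remaining members of the lists were not called in ILC1 against NK cells. In the receptor complex, Cdc37, a co-chaperone of HSP90, had a log2 fold change of -0.02 (SE 0.162). It had 1279 to 2431 normalized counts over the 12 libraries. The coregulators Ccnt1, Cdk9, Crebbp, Carm1 and Cul4b lay between -1.07 and 0.38. Several low values came from the libraries with gaps, since Carm1 and Cdk9 were at 0 in lean NK 27 and Carm1 and Cul4b at 0 in obese ILC1 25. Among circadian PAS genes, Clock had 0.04 (SE 0.389) and Arntl 0.23 (SE 0.734).

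Among target genes, Abcg2, an efflux transporter of the cell membrane, had 817, 754 and 297 normalized counts in lean NK 25, 26 and 27 and 844, 843 and 684 in obese NK. Its ILC1 values were 182, 123 and 364 in lean mice and 576, 219 and 477 in obese mice. The log2 fold change of Abcg2 was -1.21 (SE 0.371, adjusted p = 0.0887 in edgeR), short of the call. DESeq2 and the likelihood-ratio test did call it lower, as they did 2.68% and 2.57% of genes, and so did fits without lean NK 27 or with a filter of 10 counts in every library. The cell cycle inhibitor Cdkn1b had -0.41 (adjusted p = 0.3144 in edgeR) and Ccng2, a cyclin, 0.32 (SE 0.410). Cyp1a2, a target that hepatocytes express, had 217 raw counts in obese ILC1 26, the library with high hepatocyte genes, and at most 10 in any other library. Aldh3a1 was at 0 throughout. In tryptophan metabolism, Afmid, which makes kynurenine, was level between the populations at -0.11 (SE 0.234), Ccbl1 and Ccbl2 had wide intervals, and Aadat, Acmsd, Aanat and Asmt had no count.

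**Figure D4:**
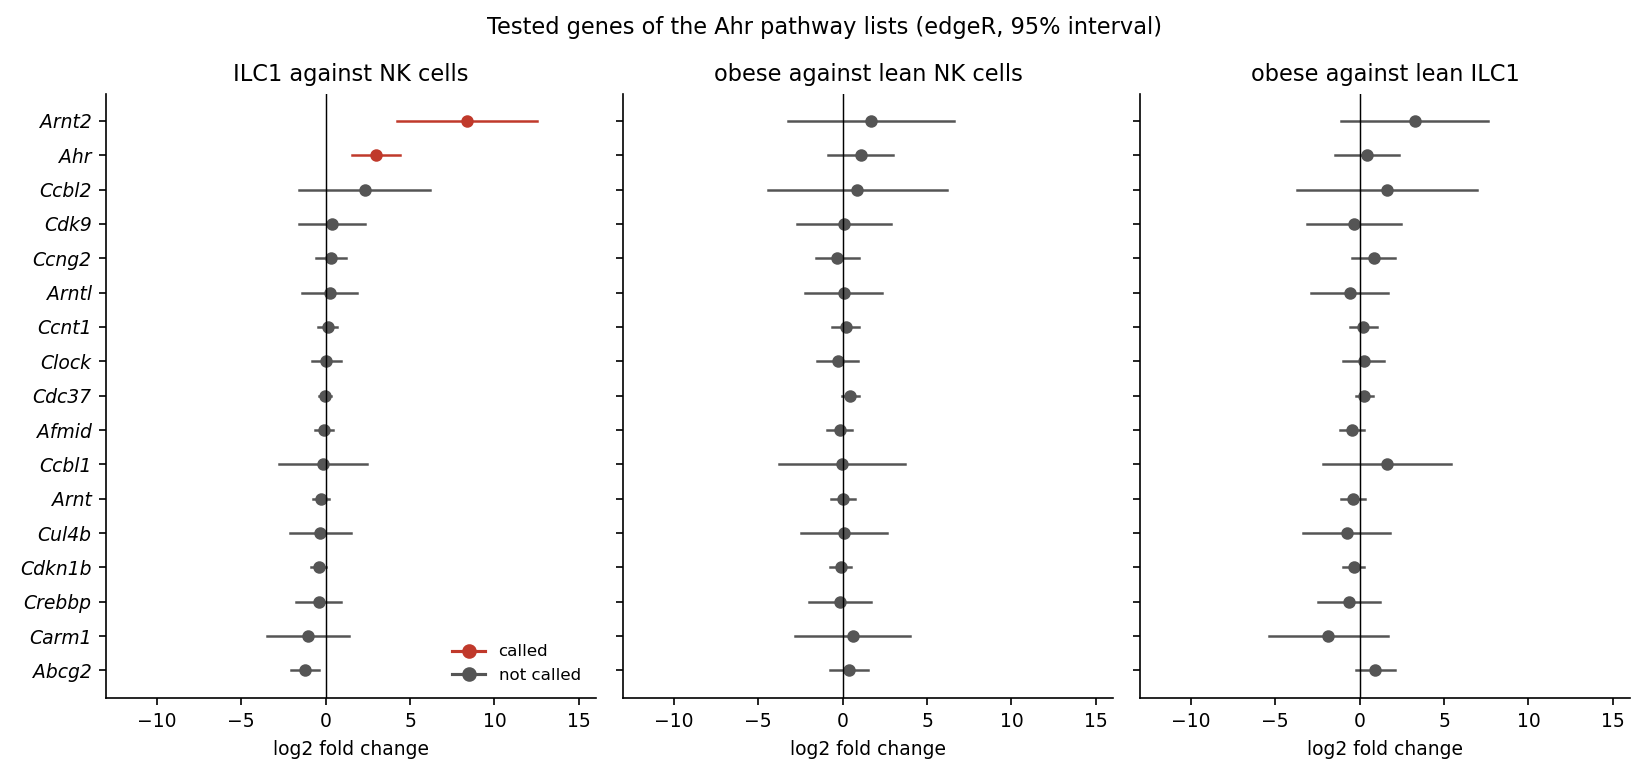
Log2 fold changes (edgeR) with 95% intervals of 17 of the 18 tested genes of the pathway lists in 3 comparisons, with called genes in red. Ahr and Arnt2 are called in ILC1 against NK cells and no gene is called in the diet comparisons. The fitted value of Arnt2 depends on the small count added to NK libraries at 0.

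The genes whose log2 CPM followed Ahr most closely over the 12 libraries, out of 2605, were Clec2i, Cd200r1, 2900008C10Rik, Adgrg3 and Cxcr3. Clec2i encodes a C-type lectin-like protein, Cd200r1 an inhibitory receptor, Adgrg3 an adhesion G protein-coupled receptor and Cxcr3 a chemokine receptor. Pearson's r with Ahr was 0.945 for Clec2i, 0.942 for Cd200r1, 0.917 for 2900008C10Rik and Adgrg3, and 0.914 for Cxcr3, beside a median of 0.05 over all 2605 genes. Since NK and ILC1 libraries form 2 clusters in Ahr, these values contain the difference between the populations. After the group means were subtracted, r was 0.739 for Clec2i, 0.608 for Cd200r1, 0.812 for 2900008C10Rik, 0.448 for Adgrg3 and 0.640 for Cxcr3. The points share libraries and depth, and lean NK 27 is the lowest library for all 5 genes as well as for Ahr. These 5 genes were picked by their correlation with Ahr in the same libraries. Positive log2 fold changes in ILC1 against NK cells therefore largely follow from that choice and are given as a description. They ran from 1.39 for Clec2i to 6.17 for Cd200r1. Of the 5 genes, 4 were called higher, beside 3.15% of all genes tested, and 2900008C10Rik was not called (adjusted p = 0.131, edgeR).

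**Figure D5:**
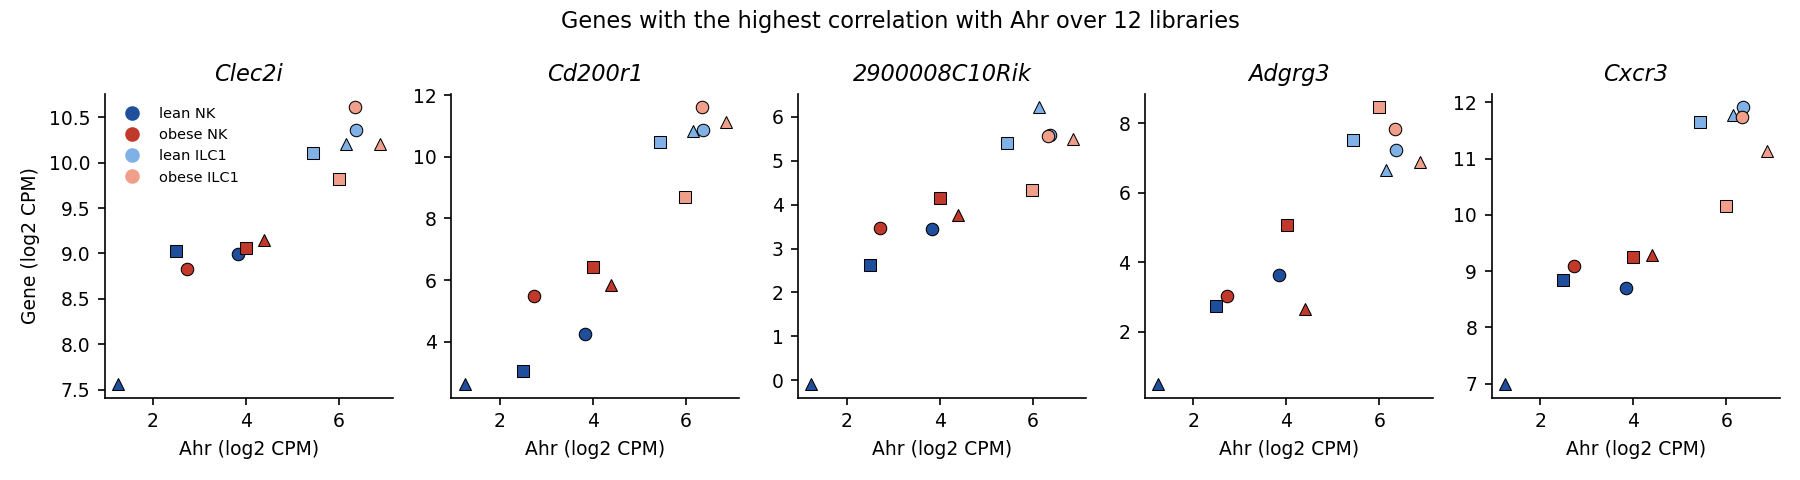
Log2 CPM of the 5 genes most correlated with Ahr against that of Ahr, with 1 point per library, colours for the 4 groups and circles, squares and triangles for replicates 25, 26 and 27. ILC1 libraries lie to the upper right of NK libraries in each panel, and lean NK 27 is at the lower left.

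For Arnt the closest genes were Adrbk1 (r = 0.880), Ccdc174 (0.844), Abhd17b (0.832), Agtpbp1 (0.821) and Acad8 (0.817), over the same 12 libraries. Adrbk1 encodes a kinase of G protein-coupled receptors. Subtracting the group means left r at 0.774 to 0.898 for these genes, which overlaps the 0.448 to 0.812 of those closest to Ahr. Arnt had its highest normalized count in lean NK 27 and its lowest in obese ILC1 25, the libraries with gaps. Their part in these values of r was not tested. None of the 5 genes closest to Arnt was called in ILC1 against NK cells, where their log2 fold changes ran from -0.91 for Agtpbp1 to -0.40 for Ccdc174.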

How the data were processed

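Libraries were made with a low input kit from 2 ng of RNA of each sorted population, 12 in all. Per the labels, the authors used bcl2fastq 2.19, Trimmomatic 0.36.5, STAR 2.5.2b and featureCounts 1.6.0.2 with mm10, and the strand setting is not given in the sources used here. The authors deposited raw counts per gene and library and, beside them, a score, the count divided by a library factor (0.57 to 1.52) and rounded, which is called the normalized count. Differential expression by the authors used SARTools.

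The table analysed here held 5545 genes with complete rows, with symbols running alphabetically up to Cyp26b1. Genes further on were not analysed here, so totals are not full library depths, and 1 incomplete row was left out. Raw counts were fitted in edgeR 4.0.16 (TMM, filterByExpr, a model of 4 groups over 12 libraries, quasi-likelihood test, R 4.3.3), with Benjamini-Hochberg adjustment over the 2606 genes tested. The 95% intervals used the fit's degrees of freedom. Ahr and Arnt passed the filter, while Ahrr, Cyp1a1 and Cyp1b1 did not. Levels were compared by exact permutation tests of the normalized counts. DESeq2 1.42.0 and other settings were alternatives. Positions and exon lengths came from GENCODE vM21 and promoter windows from RefSeq, which held 4 of the 5 genes. A floor of 3 counts was used for genes at 0.

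In the labels, NK cells and ILC1 with the same diet and number came from the same mouse, so the mouse pairs them. Correlations of deviations from group means within mice were -0.0763 to 0.141. On simulated data with 8-fold changes in 188 tested genes of ILC1 against NK cells, edgeR called 107 (56.9%) and DESeq2 145 of 191 (75.9%), with 5 and 37 unchanged genes called. The 5 genes and the lists were chosen with earlier results of these data known. The named genes were the 5, the listed pathway genes, and the 5 genes best correlated with each tested gene of the 5, while marker genes were named where they touch a result. The fits without 3 libraries and the alternatives for Arnt2 were added after the data were seen. For 1 listed gene no values are reported here.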

Additional observations from a re-analysis of the deposited data

How the results depend on the processing

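Genes called in ILC1 against NK cells numbered 113, and 222 with DESeq2, 232 with the likelihood-ratio test, 62 with at least 10 counts in every library, 46 with the mouse as replicate block, 60 in lean mice alone, 24 in obese mice alone, 245 without the 3 libraries that stand apart and 63 to 161 when 1 library was left out. In obese against lean NK cells the count of 0 became 8 with DESeq2, 2 with the likelihood-ratio test, 5 without the 3 libraries and 0 to 1 when 1 was left out. In obese against lean ILC1 it became 77, 57, 28 and 0 to 6 under the same settings, and in the difference of the obesity effect the count of 0 became 21, 9, 18 and 0 to 1. The causes were not tested.

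For Ahr in ILC1 against NK cells, 13 of 23 alternatives kept the call and 10 lost it (replicate block 3.23, lean mice alone 3.30, obese mice alone 2.66, and 7 left-out libraries, over a range of 2.74 to 3.52), with none reversed. For Arnt in the same comparison all 24 alternatives gave a lower, uncalled value, and for Arnt2 12 of 23 kept the call. The filter of 10 counts in every library removed Ahr, and Ahrr, Cyp1a1 and Cyp1b1 gave no value under any alternative. The difference of the obesity effect for Ahr turned from -0.65 to 0.24 without the 3 libraries. Arnt in obese against lean NK cells changed sign near 0, to -0.0184 with the authors' factors and over -0.13 to 0.31 when 1 library was left out, and in the exact permutation test on log2 CPM (p = 0.9). A block for the replicate number alone, which names different mice across diets, left 0 genes called in each diet comparison (correlations of -0.0145 to 0.0768) and gave Ahr 1.21 in NK cells and 0.45 in ILC1. The mouse block changed the call of Ahr and Arnt2 in ILC1 against NK cells and not that of Arnt. Each mouse had a single diet, so the diet comparisons were fitted only with the block for the replicate number and not with the mouse block. Scaling moved the median of all genes by under 0.1 on the log2 scale. The depth limits Ahr in NK cells, at 3 to 52 raw counts.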
